A study of Mus musculus with 16 samples.

Results

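The genes described here are 9 regulators of lipid oxidation and of mitochondrial biogenesis: the nuclear receptor genes Ppara, Ppard, Pparg and Esrra, the coactivator genes Ppargc1a and Ppargc1b, the transcription factor gene Nrf1, the mitochondrial DNA factor gene Tfam and the uncoupling protein gene Ucp2. They were taken by name out of 21887 protein-coding genes on the assembled chromosomes. For each, the authors' list of regions enriched in fasted mice was searched for any region that overlapped the gene or lay within 10 kb of it. That list holds 8404 regions, of which 9 met the rule, at 6 of the 9 genes. Genes without a region were kept in the count.

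Chromatin immunoprecipitation and sequencing mapped beta-hydroxybutyrylated histone H3 lysine 9 (H3K9bhb), a mark whose acyl group comes from a ketone body, in homogenates of the occipital cortex. The mice were of strain C57BL/6J and at postnatal day 35. The fasted group went without food for 48 h and the control group was fed ad libitum, and no other allele or agent is named for either group. Each feeding state had 4 immunoprecipitated and 4 input libraries, 16 in all. Only the authors' 2 lists of differential regions were analysed, in which each region carries a log likelihood ratio (log-LR) and no value per library. The depth behind a region, its fold change and its spread between mice are therefore unknown, no test between mice was made, and a region names a place where the authors called a difference in a mixture of all cortical cell types. A shift in the share of a cell type and a shift of the mark within cells cannot be told apart in such a mixture.

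Peroxisome proliferator-activated receptors (PPARs) are fatty acid sensing receptors that bind DNA with a retinoid X receptor partner, and PPAR alpha drives fatty acid oxidation and ketone body production in the fasted liver. PGC-1 alpha and PGC-1 beta, the products of Ppargc1a and Ppargc1b, bind these receptors, the estrogen-related receptor alpha made by Esrra, and the nuclear respiratory factor made by Nrf1, and so raise transcription of nuclear genes for mitochondria. Among the genes they switch on is Tfam, whose protein packages mitochondrial DNA and starts its transcription. In brain, PGC-1 alpha is best known from neurons with high energy use, including inhibitory neurons that express parvalbumin.

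The promoter sequences of 4 of the genes show the range of settings met here. They are the bases just before the transcription start listed for each gene in RefSeq (build GRCm38.p6), read 5' to 3' on the gene's strand. Ppara is shown because most of this stretch lay inside a fasting-enriched region, Ucp2 because a region began just past its start, and Ppargc1a and Tfam because no region lay at the listed start. Capitals mark matches, on either strand, to any of 7 motifs searched: the GC box GGGCGG, the Nrf1 protein's palindrome (GCGCA followed directly by TGCGC), the ETS and GABP motif CCGGAAG, the cAMP response element TGACGTCA, the direct repeat bound by PPARs (AGGTCA and again AGGTCA, with any 1 base between them), the estrogen-related receptor element TNAAGGTCA and the FOXO motif TGTTTAC. The Ppara stretch is chr15:85735526-85735775 (+ strand), that of Ucp2 chr7:100493108-100493357 (+ strand), that of Ppargc1a chr5:51567726-51567975 (- strand) and that of Tfam chr10:71238045-71238294 (- strand).
Ppara: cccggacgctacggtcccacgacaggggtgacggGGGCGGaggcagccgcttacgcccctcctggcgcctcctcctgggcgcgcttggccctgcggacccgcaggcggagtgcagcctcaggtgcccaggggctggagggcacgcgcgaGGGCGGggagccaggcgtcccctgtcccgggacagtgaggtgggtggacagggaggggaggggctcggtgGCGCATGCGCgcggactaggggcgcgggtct
Ucp2: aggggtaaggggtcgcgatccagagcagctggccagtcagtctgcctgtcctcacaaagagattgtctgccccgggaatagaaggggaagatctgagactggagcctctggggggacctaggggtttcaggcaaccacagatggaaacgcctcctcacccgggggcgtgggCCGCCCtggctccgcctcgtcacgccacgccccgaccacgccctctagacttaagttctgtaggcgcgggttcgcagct
Ppargc1a: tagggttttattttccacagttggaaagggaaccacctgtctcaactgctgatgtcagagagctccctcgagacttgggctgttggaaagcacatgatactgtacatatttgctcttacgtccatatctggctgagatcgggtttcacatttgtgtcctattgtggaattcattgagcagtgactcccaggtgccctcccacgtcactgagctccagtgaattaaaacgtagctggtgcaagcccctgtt
Tfam: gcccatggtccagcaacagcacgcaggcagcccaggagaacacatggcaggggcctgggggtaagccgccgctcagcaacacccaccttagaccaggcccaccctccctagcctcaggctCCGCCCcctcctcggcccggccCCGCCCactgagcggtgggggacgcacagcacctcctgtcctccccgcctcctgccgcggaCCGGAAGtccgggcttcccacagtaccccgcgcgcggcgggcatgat

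Among the receptor genes, Ppara carried a fasting-enriched region at its promoter. Ppara spans chromosome 15, 85734910 to 85806851 (mm10, + strand), and the region lay at 85735492 to 85735740, with a width of 249 bp and a log-LR of 5.37. Counted from the RefSeq start at position 85735776, it ran from 284 to 36 bp upstream. It held 215 of the 250 bases printed above, including both GC boxes, which began 216 and 101 bp upstream of the start. The Nrf1 palindrome in the same promoter, 31 to 22 bp upstream, lay just outside, with 4 bp between it and the region's edge. The annotated gene begins 866 bp before that start, so relative to this outermost end the same region began 582 bp inside the gene. In the whole list, 40% of regions had a higher log-LR than this one.

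A further region lay past the other end of Ppara, 4.6 kb beyond the gene. It covered positions 85811448 to 85811634 and had a log-LR of 8.24, the highest among the 9 regions, with 10.3% of the list above it. This region belonged by position to Cdpf1, the neighbouring gene, which starts on the opposite strand and whose transcribed stretch ends 121 bp from Ppara. It ran from 63 to 249 bp downstream of the Cdpf1 start. Both regions near Ppara were thus at a gene start, and only the one of lower log-LR was at a start of Ppara itself.

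Ppard, the PPAR gene expressed most widely across tissues, had no region inside it. The region counted for it lay 8.61 kb upstream of its start, at chromosome 17, 28223957 to 28224146, with a log-LR of 6.09 and a width of 190 bp. It was inside Def6, a gene for a guanine nucleotide exchange factor best known from T cells, 16.3 kb from the nearest listed Def6 start and 4.46 kb from the far end of that gene. Of the 9 regions it was the one nearest to the 10 kb limit. The closest region beyond that limit for any of the 9 genes was 19027 bp from Esrra, at chromosome 19, 6941075 to 6941317 (log-LR 4.89).

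Pparg, the receptor gene that directs fat cell formation, had no region within 10 kb of its 130 kb. The nearest lay 334 kb away, at chromosome 6, 115824537 to 115824684, with a log-LR of 4.97. A nearer region was found for 88.2% of protein-coding genes, whose median distance to one was 69.2 kb. Within 500 kb of Pparg the list held 1.77 regions per Mb, against 3.04 per Mb over the assembled chromosomes. Of the 9 genes Pparg had the lowest such density and Ppara the highest, 9.33 per Mb. The chromosome value is an average over all positions. The density around all protein-coding genes was not computed, so that average is no background for gene neighbourhoods.

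Esrra, whose receptor acts with PGC-1 on genes of oxidative metabolism, had a region just past its 3' end and none at its start. The gene spans chromosome 19, 6910977 to 6922048 (- strand). The region, at 6910402 to 6910676, had a width of 275 bp, the widest of the 9, and a log-LR of 5.45. It lay 301 bp outside Esrra and inside Trmt112, a gene for a methyltransferase partner protein that overlaps the end of Esrra by 52 bp. It also lay 296 to 570 bp upstream of the start of Prdx5, a gene for a peroxide-reducing enzyme on the other side of Trmt112. The start of Esrra was 11.3 kb from the region's centre.

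The coactivator gene Ppargc1a held more regions than any of the other 8 genes, all 3 of them inside the gene and all below the median log-LR of the list. The gene spans 662 kb of chromosome 5 (51454249 to 52115853, - strand), of which the part before the listed start at 51567725 makes up 548 kb. This long upstream part is known for a distal promoter active in brain. A pair of regions lay at its outermost end, at 52114775 to 52115039 (width 265 bp, log-LR 4.85) and 52113695 to 52113845 (width 151 bp, log-LR 3.53). Their centres were 946 bp and 2083 bp inside the upstream gene end, with 929 bp between the regions. Protein-coding genes with at least 2 regions within 2.5 kb of the same end numbered 307, or 1.4% of all, a count made after the pair had been seen. The third region, at 51973963 to 51974208 (width 246 bp, log-LR 4.67), lay 139 kb nearer to the listed start.

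At the listed start of Ppargc1a itself the fasted list had nothing near. The closest of the 3 regions was 406 kb upstream of it. The printed sequence before this start held none of the 7 motifs. The 300 bp around it (250 before and 50 after the start) were 48.7% G and C, with a ratio of observed to expected CpG of 0.282. For Ppara these values were 74.7% and 0.736, and for Ucp2 64.3% and 0.677. Per length of gene, Ppargc1a held 4.53 regions per Mb, against 2.21 per Mb over all protein-coding genes longer than 200 kb. Its value counts the pair at the upstream end, 929 bp apart, as separate regions, and the gene was chosen with earlier results known.

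Ppargc1b held 1 region, at chromosome 18, 61398745 to 61398874, the narrowest of the 9 at 130 bp, with a log-LR of 4.37. The gene spans 61291445 to 61400756, and the region's centre was 1947 bp inside its higher-coordinate end. Close by lies Mir378a, the microRNA gene that Ppargc1b carries in an intron and whose products act on metabolic genes. The region was 845 bp from Mir378a and 285 bp from the lncRNA gene Gm52354, and overlapped neither. The log-LR of the outermost Ppargc1a region was exceeded by 52.5% of the list and that of the Ppargc1b region by 67.5%. How many of all protein-coding genes have a single region so near an end was not counted.

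**Figure D1:**
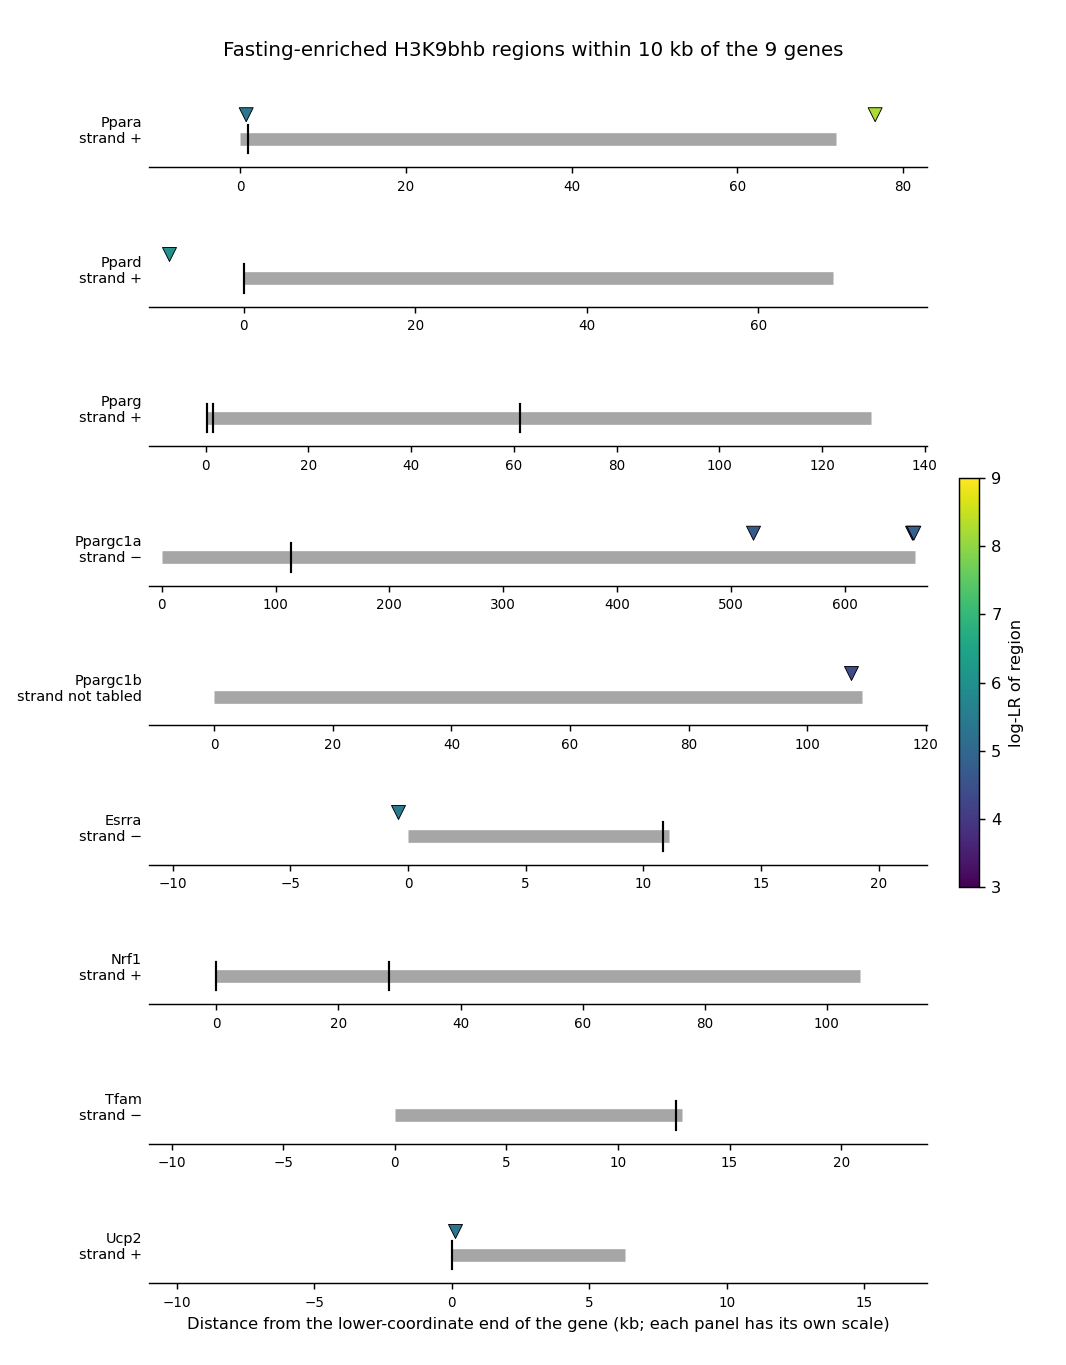
Positions of the 9 fasting-enriched regions (triangles, coloured by log-LR) along the 9 genes (grey bars), in kb from each gene's lower-coordinate end, with listed RefSeq starts as vertical lines and a scale of its own in each panel. Triangles sit at a start for Ppara and Ucp2, at the upstream end of Ppargc1a, where 2 triangles nearly coincide, and at none of the panels for Pparg, Nrf1 and Tfam.

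Neither Nrf1 nor Tfam, the genes that link the coactivators to mitochondrial DNA, had a region within 10 kb. For Nrf1 (105 kb, chromosome 6, 30047985 to 30153458, + strand) the nearest region was 62.7 kb away, with a log-LR of 7.19, and 47.7% of protein-coding genes had a nearer one. For Tfam (12.9 kb, chromosome 10, 71225468 to 71238328, - strand) it was 46.2 kb away inside Ube2d1, a ubiquitin-conjugating enzyme gene, with a log-LR of 6.36, and 41.6% of genes had a nearer one. Both distances were below the median over all genes. The Tfam promoter printed above held 2 GC boxes, and its CCGGAAG match began 47 bp before the start. Since the list shows only differences between feeding states, a gene without a region may carry the mark alike in both.

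Ucp2, a mitochondrial carrier gene of the uncoupling protein family that responds to fatty acids in many tissues, had its single region directly at its start. The gene spans chromosome 7, 100493337 to 100499629 (+ strand), and the region lay at 100493383 to 100493549, with a width of 167 bp and a log-LR of 5.33. It ran from 25 to 191 bp downstream of the RefSeq start at 100493358, and so began just after the sequence printed above. Its log-LR was exceeded by 41.1% of the list. The next region was 121 kb from the gene.

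In all, 6 of the 9 genes (66.7%) had a region within 10 kb, against 23.3% of all protein-coding genes (5095 of 21887). A region overlapped the gene itself at 4 of the 9, against 16.4% of all. For the remaining 2 genes with a region, Ppard and Esrra, it lay in a neighbour. The 9 genes were chosen with earlier results of these data known, among them regions at Ppara and Ppargc1a, so the counts are a description and carry no test. Gene length also moves these shares. Among genes under 20 kb long, 2 of 3 of the set (Esrra and Ucp2, not Tfam) had a region within 10 kb, against 16.9% of all such genes. Between 20 and 100 kb it was 2 of 2 (Ppara and Ppard) against 26.7%, and over 100 kb 2 of 4 (Ppargc1a and Ppargc1b, not Pparg and Nrf1) against 43.9%. With overlap required, the counts were 1 of 3 against 8.91%, 1 of 2 against 20.4% and 2 of 4 against 40.7%. The share for the 4 longest genes was thus close to the background of their length.

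The log-LR values of the 9 regions were ordinary for the list. They ran from 3.53 to 8.24 with a median of 5.33, against a median of 4.96 and quartiles of 4.16 and 6.28 over all 8404 regions, and 5 of the 9 were above that median. Widths ran from 130 to 275 bp with a median of 190 bp, against 205 bp over the list. Taking the highest value at each gene, the median was 5.39 over the 6 genes and 5.14 over all protein-coding genes with a region within 10 kb. The 3 highest of the 9 values belonged to the regions outside the genes they were counted for.

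**Figure D2:**
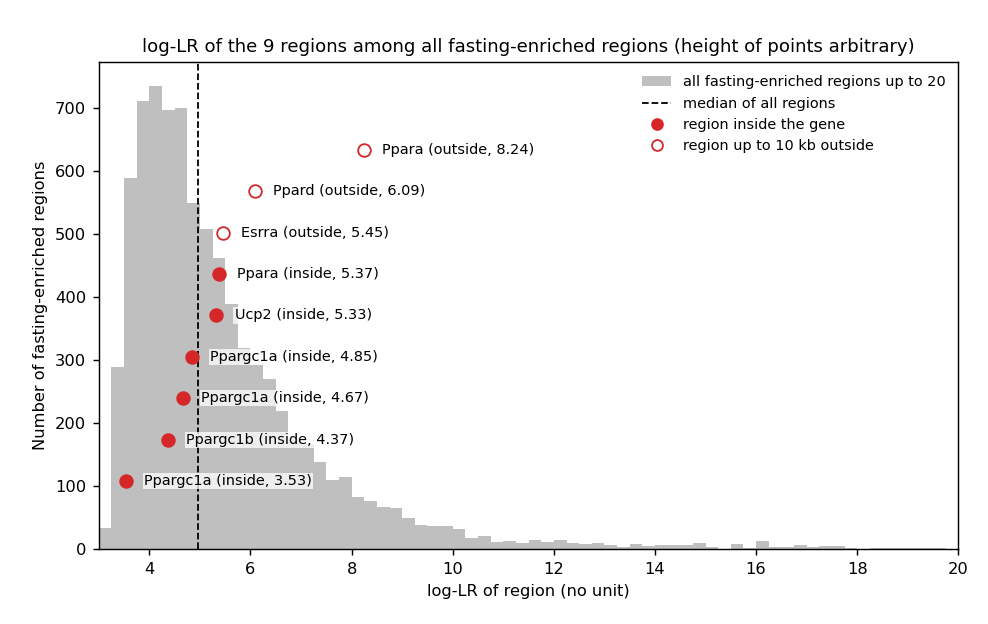
Histogram of log-LR (x axis, no unit) for fasting-enriched regions up to 20, with the 9 regions as points (filled inside the gene, open outside, height arbitrary) and the list median of 4.96 as a dashed line. The 3 open points, at 5.45, 6.09 and 8.24, lie to the right of all filled points, which reach 5.37.

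The list of regions enriched in ad libitum fed mice held 1 region, on chromosome 3, where none (0) of the 9 genes lies. By that list, 0.00457% of protein-coding genes had a region within 10 kb. All regions at these genes were therefore in the fasted direction, as were all but 1 of the regions deposited.

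RefSeq starts were on hand for 8 of the 9 genes, with 11 starts in all. A region overlapped the 300 bp promoter window at Ppara and Ucp2, 2 of 8, against 3.53% of 17492 protein-coding genes with a listed start. Within 1 kb of a start the count was the same 2 of 8, against 13.2%. For Ppargc1a the only listed start is 548 kb from its upstream end, so the pair of regions there could not count. Over the whole list, 2417 regions had their centre within 2 kb of a listed protein-coding start, and 84% of these centres were downstream of it, with a median offset of 273 bp. The fullest 100 bp class was 200 to 300 bp downstream, with 445 regions. The Ucp2 region, centred 108 bp downstream, lay on the fuller side. The Ppara region, centred 160 bp upstream of its listed start, was among the 385 on the upstream side. That side depends on the listed start, since the centre lay 706 bp inside the outermost annotated end of Ppara.

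**Figure D3:**
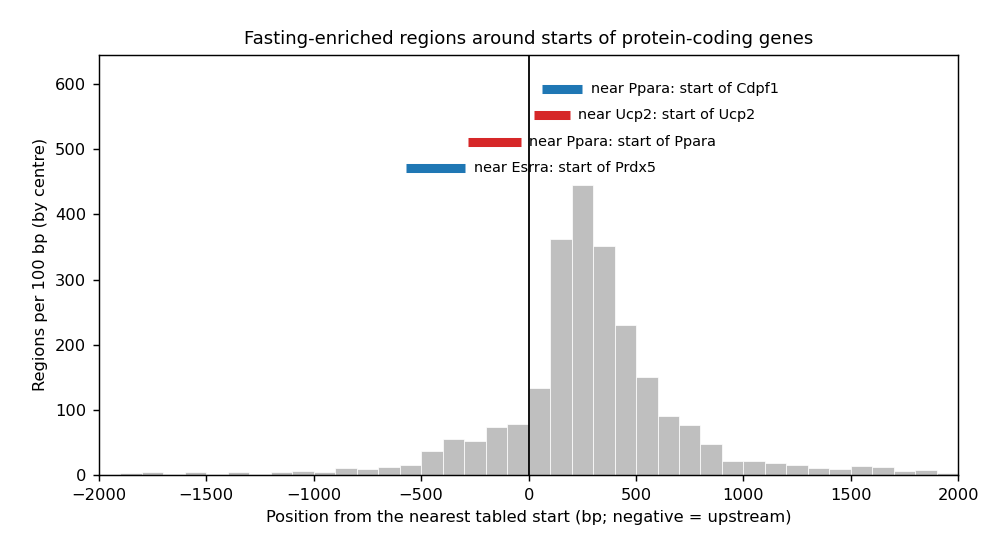
Number of fasting-enriched regions per 100 bp (grey bars, by centre) against position from the nearest listed start of a protein-coding gene in bp, with the extents of the 4 regions near the 9 genes that had their centre within 1 kb of a listed start (red at the gene's own start, blue at a neighbour's). Most regions lie downstream of a start, as do those at Ucp2 and Cdpf1, while those at Ppara and Prdx5 lie upstream.

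Promoter composition did not separate the 2 marked promoters from the rest of the set. Of 21263 promoter windows of protein-coding genes, 3.19% were overlapped by a region. The share was 5.97% where the ratio of observed to expected CpG was at least 0.6 and 0.656% where it was lower. The windows of Ppara (0.736) and Ucp2 (0.677) were in the upper class, but so were those of Ppard (0.826), Esrra (0.781) and the first listed starts of Nrf1 (0.971) and Pparg (0.909), which had no region. Tfam was just below it at 0.586 and Ppargc1a well below at 0.282.

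Motif letters were also shared widely. A GC box was in 8 of the 11 promoter windows of these genes, against 46.2% of all windows, and Ppargc1a was the 1 gene of the 8 without one. The Nrf1 palindrome was found in Ppara alone among the 8 and in 1.33% of all windows, and CCGGAAG in Tfam alone and in 11.6% of all. The cAMP response element (2.23% of all windows), the PPAR direct repeat (0.047%), the estrogen-related receptor element (1.03%) and the FOXO motif (3.01%) were in none (0) of the 11 windows of these genes. These counts describe letters in a short window, each motif read on both strands, and GC boxes can overlap other GC-rich motifs.

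The pathway around the 9 genes was read from 5 further lists with 88 genes, of which 28 had a region within 10 kb. The coregulators and upstream regulators of PGC-1 and PPARs had the largest share of these lists, 16 of 28 (57.1%), with 12 of 28 overlapped, against the 23.3% and 16.4% of all protein-coding genes. Their median length was 78.2 kb, against 17.2 kb over all. Among all protein-coding genes of 20 to 100 kb the shares were 26.7% and 20.4%, and over 100 kb 43.9% and 40.7%. The median highest log-LR of the coregulators was 5.58, against 5.14 over all. High values were found at Mef2d (9.77), Crebbp (7.05) and Perm1 (6.78). Mef2d, a neuronal activity-regulated transcription factor gene, had 3 regions within 10 kb. The highest lay 2955 bp outside the gene, and Mef2d was also among the 12 genes overlapped. The region of the acetyltransferase gene Crebbp was inside the gene. That of Perm1, which is named for its regulation by PGC-1 and estrogen-related receptors in muscle, lay 5323 bp outside it.

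Factors of mitochondrial biogenesis and mitochondrial DNA expression had a region within 10 kb at 6 of 20 (30%), near the background of 23.3%, with a median highest log-LR of 5.37. Gabpa, which encodes the DNA-binding subunit of nuclear respiratory factor GABP, had the highest at 6.09, in a region of 470 bp shared with Atp5j, an ATP synthase subunit gene. Polg2, for the accessory subunit of the mitochondrial DNA polymerase, had 2 regions within 10 kb. The higher, at 5.71, lay 8268 bp away in Ddx5, and the other overlapped Polg2 itself. Tfb2m, a mitochondrial transcription factor gene, had 5.39 and Yy1, a partner of PGC-1 alpha, 5.36, both inside the gene. Most of the 20 had no region, as Tfam and Nrf1 had none, and no difference between single genes was tested.

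PPAR target genes had a region at 5 of 30 (16.7%), with a median highest log-LR of 5.93. Their median length was 15 kb, and the share over all protein-coding genes under 20 kb was much the same, 16.9%. A region overlapped 2 of the 30, among them Acadl, for a fatty acid oxidation enzyme (log-LR 5.51). Slc27a1, a fatty acid transporter gene, had 2 regions within 10 kb, of which the higher (8.27) lay 4894 bp outside it, in Pgls. The region of Fabp5, a fatty acid binding protein gene (5.93), lay 5425 bp outside. Among the other uncoupling proteins 1 of 5 had a region (20%). This was Ucp3, through the Ucp2 region itself, which lies 6951 bp from Ucp3. The retinoid X receptor genes Rxra, Rxrb and Rxrg and the receptor genes Esrrb and Esrrg had none (0 of 5).

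Cell type markers were counted in the same way, since the list gives no expression by which the tissue could be checked. In 6 lists with 37 genes, 8 had a region within 10 kb, close to the 23.3% of all protein-coding genes. Excitatory and pan-neuronal markers had 3 of 7 (Camk2a, 9.49, Rbfox3, 4.77, and Tbr1, 4.01) and oligodendrocyte markers 2 of 6 (Mbp, 6.61, and Cnp, 6.52). Inhibitory neuron (Pvalb, 3.44), astrocyte (Aldh1l1, 8.50) and microglia markers (Aif1, 5.35) had 1 of 6 each. The regions counted for Aldh1l1 and Aif1 lay 5446 bp and 6268 bp outside, in Slc41a3 and Prrc2a, and both lists had 0 of 6 with a window of 5 kb. Endothelial and mural markers had 0 of 6. Whether cell type shares take part in the regions at the 9 genes was not tested.

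**Figure D4:**
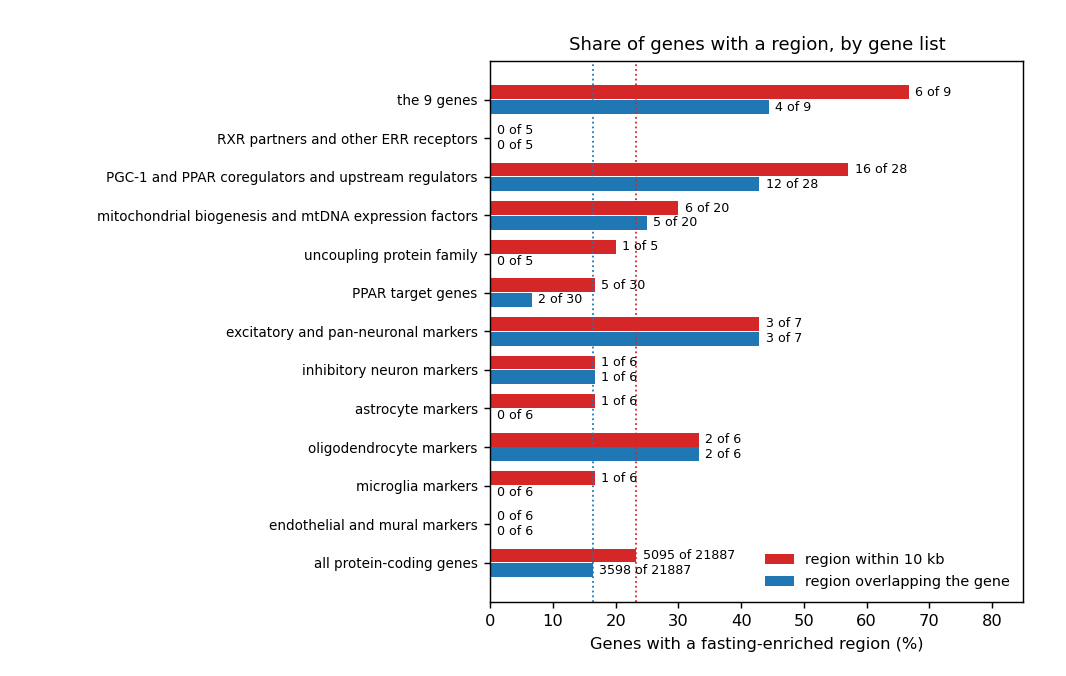
Percentage of genes with a fasting-enriched region within 10 kb (red) or overlapping the gene (blue) for the 9 genes, 5 pathway lists, 6 marker lists and all protein-coding genes, with counts beside the bars and dotted lines at the 23.3% and 16.4% of all protein-coding genes. The 9 genes and the coregulators have the longest red bars, and the red bar of PPAR targets ends at 16.7%.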

How the data were processed

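The authors deposited 2 region lists, and per the file headers their only measurement is a log-LR per region, treated here as a score. For its log base, cutoff, depth scaling and any pooling of libraries no source used here gives a statement. The submitters' processing notes name MACS2, Bowtie2 and mm10. Starts were read as counted from 0, since the smallest width is then exactly 120 bp, and are printed counted from 1. Gene spans, which carry no exons, and listed starts with strand came from RefSeq tables of GRCm38.p6. All 9 genes matched the gene table by symbol, and 8 the promoter table. Regions within 10 kb of a gene were paired with it by gap. With 200 gaps planted in simulated regions, this step returned every gap up to 10 kb and left out every longer one. Shares over all protein-coding genes on chromosomes 1 to 19, X and Y give the background. No test was run, since the lists hold no value per library. Named list genes are at most the 4 of highest log-LR per list, not all of which are reported here. The genes and lists were chosen with earlier results of these data known. The depth is unknown. Alternatives were windows of 0, 1, 5 and 25 kb, log-LR limits of 5 and 10, region centres, merging within 1 kb and the nearest gene only. Python 3.11.15, numpy 2.4.6, pandas 2.3.3 and matplotlib 3.10.9 were used.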

Additional observations from a re-analysis of the deposited data

How the results depend on the processing

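Of the 9 genes, 6 had a region within 10 kb, against 23.3% of all protein-coding genes. The count was 5 at 5 kb (20.3% of all), 5 at 1 kb (18.1%), 4 with overlap required (16.4%), 4 with each region given only to its nearest protein-coding gene (18.2%) and 6 at 25 kb, where the share of all genes rose to 31.9%. It was also 6 with region centres and with regions merged. At a log-LR of at least 5, 4 genes were left with 5 regions, 2 genes were overlapped, and the background fell to 2747 genes (12.6%). At 10, none (0) of the 9 genes, 0 of their regions and 0 overlapped genes were left, as were 0 coregulators, 0 biogenesis factors, 0 uncoupling proteins and 0 PPAR targets, with 197 genes (0.9%) over all. These losses follow from the limit itself. The uncoupling protein count was 0 at 5 kb, at 1 kb, with overlap and with the nearest gene only, since Ucp3 counted through a region at Ucp2. PPAR targets were 2 of 30 at 1 kb, 2 with overlap, 3 with the nearest gene only and 8 at 25 kb, settings whose shares of all genes are those given above. The cause was not tested. The highest log-LR at Ppara was 8.24 only through the Cdpf1 region, and 5.37 at 1 kb. No paired analysis was possible because no library has a value of its own in the lists, and leaving out replicates was not run for the same reason.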
